A study of Mus musculus with 8 samples.

Results

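Autophagy genes encode the proteins with which a cell encloses a portion of its cytoplasm in a double membrane, the autophagosome, and delivers it to the lysosome for breakdown. The list names 37 genes of this pathway, and 36 of them were measured among 19937 genes. The missing one was Optn, the receptor optineurin, to which no probe set was assigned alone. Each gene was read from the probe set annotated to it alone, and the brightest over all arrays was taken where there were several. The genes were grouped by step: initiation (5 genes), nucleation (6), membrane supply (5), conjugation (11), the Atg8 proteins that are conjugated (5), cargo receptors (2 measured of 3) and fusion with the lysosome (2).

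RNA came from regulatory T cells (Tregs), a CD4+ lineage that holds immune responses in check, sorted as CD4+ TCRβ+ CD25+ cells from peripheral lymph nodes and spleen. All recipients were CD3ε-/- mice, which form no mature T cells of their own, and were lethally irradiated. One group received wild-type bone marrow (WT-CD3KO, here WT chimeras) and the other received IIKO bone marrow (IIKO-CD3KO, here IIKO chimeras). The labels say that Tregs of the IIKO chimeras lack contacts of the T cell receptor (TCR) with MHC class II in the periphery, and they do not name the disrupted class II gene. Strain and age are given as C57BL/6 and 6 to 8 weeks, with cells taken 28 days after reconstitution. Each group had 4 arrays, 1 per sample, labelled from 100 ng of RNA. The labels call these samples biological replicates and do not say how many mice each one pools. As background, host cells that withstand irradiation, such as thymic stroma, keep the recipient's genes in both groups. Any effect of the donor marrow other than the lost contact cannot be told apart from it.

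Array medians ran from 6.96 to 7.03 (log2). How precise a group mean or a difference is depends on the number of arrays. The list of Treg markers (11 measured) also holds Cd4, Cd5 and the CD3 chains Cd3d, Cd3e, Cd3g and Cd247, which other T cells share. The mean level of the 11 ran from 11.51 to 11.57 in WT and from 11.51 to 11.57 in IIKO arrays. This mean joins differences of opposite sign. Foxp3, Il2ra, Ikzf2, Ctla4, Tnfrsf18 and Cd4 had the 6 positive differences, from 0.04 to 0.17. Cd5 and the CD3 chains had the 5 negative ones, from -0.11 to -0.03. Mean levels of the B cell, myeloid, NK and CD8 T cell, erythroid and thymocyte markers overlapped between the groups. Single markers moved within these means, although 0 of either list named next passed the test. On the list of Treg markers 4 of 11 did not overlap between the groups, with Il2ra, Ikzf2 and Ctla4 higher and Cd247 lower in IIKO chimeras. The differences were small, at 0.17, 0.05, 0.12 and -0.11 in that order. The nearest arrays of the groups stood only 0.0012, 0.0093, 0.0076 and 0.039 apart. Among the NK and CD8 T cell markers 4 of 11 did not overlap, with Klrk1 higher and Cd8a, Klrb1c and Nkg7 lower. An unadjusted limma p under 0.05 was reached by 5 of 11, Klrk1 and Klrd1 (higher) and Cd8a, Nkg7 and Gzma (lower). Over all genes 10.5% did not overlap and 17.3% were under that p. Gzma had the largest difference of the 11, at -0.78, with overlapping groups. Klrb1c (means 4.36 in WT, 4.26 in IIKO) and Klrk1 (5.02 and 5.47) were dim, under the first quartile over all genes (6.04). Nkg7 was bright (11.28 and 10.93), and which cells its signal came from was not tested. The part of these markers in the results on autophagy genes was not tested. The myeloid and dendritic cell list (17 measured) had the widest ranges, 6.56 to 6.86 in WT and 6.52 to 6.96 in IIKO arrays. Of the 19937 genes, 57 passed the test, which is 0.286%. Because each sample is a mixture of cells, fewer cells of a type and less RNA per cell cannot be told apart.

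In brief, autophagosome formation starts when the ULK1 kinase complex, held in check by the nutrient sensor mTORC1, is released. A class III PI3-kinase complex then marks the membrane with the lipid PI3P, WIPI proteins bind that lipid, and ATG9 and ATG2 bring in membrane. A pair of linked conjugation systems attaches ATG12 to ATG5 and couples the Atg8 proteins (LC3 and GABARAP) to lipid, and cargo receptors bind Atg8 proteins and cargo at once. In mouse Tregs, deletion of Atg5 or Atg7 is known to impair survival and lineage stability.

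Setting Tregs of IIKO chimeras against those of WT chimeras asks whether transcripts of this machinery differ when the labelled TCR contact is missing. None of the 36 measured genes passed the test (limma, Benjamini-Hochberg over all genes, threshold 0.05; 0 higher, 0 lower). The differences, IIKO minus WT, were small, from -0.11 for Atg7 to 0.20 for Wipi2 on the log2 scale, and the median size regardless of sign was 0.067. At an unadjusted limma p under 0.05 lay 2 genes, Wipi2 and Atg16l1, both with higher means in IIKO chimeras. Over all genes, 17.3% lay under that p (5.27% higher and 12% lower). The count of 2 was 0 without IIKO array 3, 1 without IIKO array 1 (Atg16l1) and 1 without IIKO array 4 (Wipi2). It was 3 without WT array 3 (Rb1cc1, Atg16l1 and Gabarapl1). It was also 3 without IIKO array 2 (Wipi2, Atg16l1 and Ulk1, the last lower in IIKO chimeras). Without WT array 2 the 2 genes were Atg2b and Atg16l1, and without WT array 4 they were Rb1cc1 and Wipi2. For 35 of the 36 genes the 95% confidence interval of the difference lay within 0.5 log2 (1.41-fold) of 0 in both directions, and over all genes this held for 94.1%. A p that misses the threshold does not show that levels were equal, and the intervals give the sizes that the arrays leave possible.

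**Figure D1:**
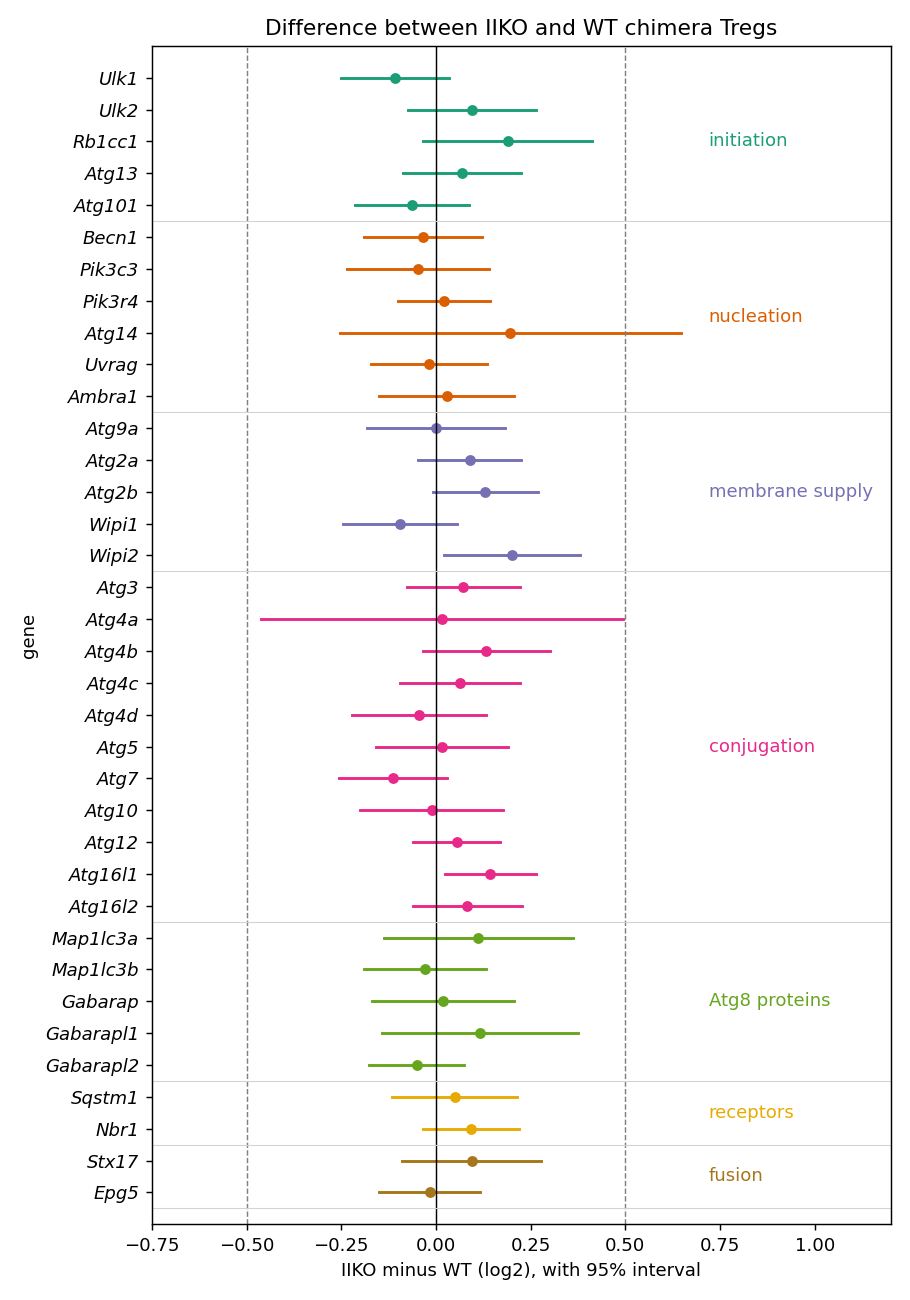
Difference IIKO minus WT of each measured autophagy gene (log2, horizontal axis), with its 95% confidence interval from limma (lines) and the genes grouped by step (colours); dashed lines mark 0.5 log2 in either direction. Only the interval of Atg14 crosses a dashed line, and the intervals of Wipi2 and Atg16l1 lie above 0.

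More autophagy genes had a positive than a negative difference (23 against 13), and their median was 0.039. Across all genes, 37.1% of differences were positive and the median was -0.038. That background depended on brightness. Among the 9968 genes brighter than the median gene, 53.7% of differences were positive with a median of 0.011, and among the 9969 others 20.5% were positive. Of the autophagy genes, 34 belonged to the brighter genes, 22 of them with a positive difference. When the arrays were quantile-normalized once more the counts were 20 positive and 16 negative, with a median of 0.0073, against 47.3% positive and a median of -0.0069 over all genes. With arrays centred on their medians they were 26 and 10, with a median of 0.057, against 42.9% positive and a median of -0.020 over all genes.

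**Figure D2:**
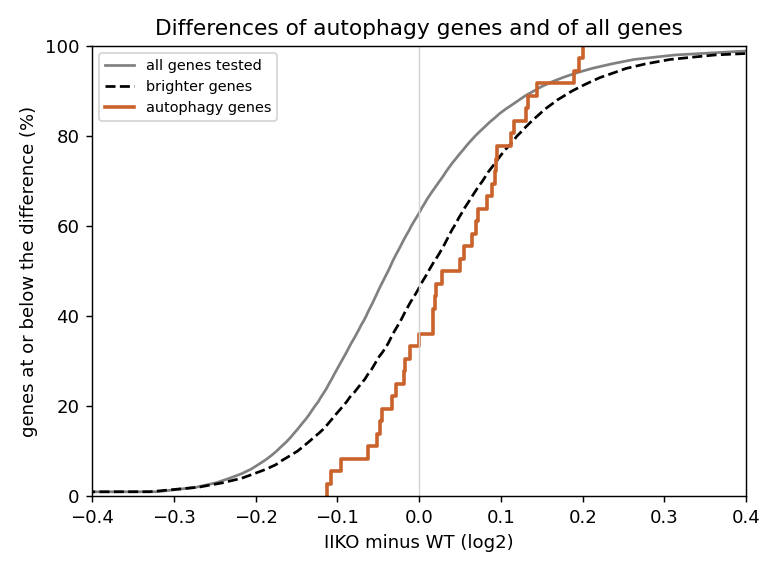
Share of genes (vertical axis, %) whose difference IIKO minus WT is at or below the log2 value on the horizontal axis, for all 19937 genes, the 9968 brighter genes and the 36 autophagy genes. The step line of the autophagy genes lies between -0.11 and 0.20, with a median of 0.039 against -0.038 for all genes and 0.011 for the brighter genes.

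The initiation complex had 0 of 5 genes past the test (0 at an unadjusted limma p under 0.05) and a median difference of 0.069. Rb1cc1, which encodes the scaffold FIP200 of the ULK1 complex, had the smallest p of this step. Its levels were 9.42, 9.35, 9.73 and 9.79 in WT and 9.73, 9.67, 9.79 and 9.86 in IIKO arrays 1 to 4 (log2). WT arrays 1 and 2 were low, while WT arrays 3 and 4 lay among the IIKO arrays, so that the groups overlapped. The difference was 0.19 with an interval of -0.03 to 0.41 (limma adjusted p = 0.351). Ulk1, the kinase that starts autophagosome formation, read 7.44, 7.47, 7.60 and 7.56 in WT and 7.32, 7.53, 7.40 and 7.39 in IIKO arrays. All IIKO arrays but array 2 were below the WT arrays, and the difference was -0.11 (interval -0.25 to 0.03, limma adjusted p = 0.397). Its paralogue Ulk2 differed by 0.10, the adaptor Atg13 by 0.07 and Atg101, which stabilizes ATG13, by -0.06, with limma adjusted p from 0.525 to 0.645.

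Among the nucleation genes, which make the PI3-kinase complex and its regulators, 0 of 6 passed (0 unadjusted) and the median difference was 0.00091. Becn1, the Beclin 1 subunit that BCL-2 can hold inactive, was at 8.97, 8.88, 8.75 and 8.79 in WT and at 8.78, 8.91, 8.88 and 8.68 in IIKO arrays. The groups overlapped, WT array 1 being the highest and IIKO array 4 the lowest, with a difference of -0.03 and an interval of -0.19 to 0.12 (limma adjusted p = 0.826). Atg14, the subunit that directs the complex to autophagosome formation, spread most of this step. It read 7.01, 7.85, 7.74 and 7.22 in WT and 7.97, 7.40, 7.37 and 7.86 in IIKO arrays. Each group held a pair of high and a pair of low arrays, and the SDs of 0.41 and 0.31 (n = 4 arrays each) exceeded the difference of 0.20. Its interval of -0.25 to 0.65 was the widest of the autophagy genes except that of Atg4a, and a difference of up to 1.56-fold lay within it (limma adjusted p = 0.631). The difference was 0.046 without WT array 1 and 0.33 without WT array 2. Pik3c3, the catalytic subunit VPS34, read 8.89, 9.03, 9.0 and 9.16 in WT and 9.15, 9.01, 8.79 and 8.93 in IIKO arrays. Its groups overlapped, with a difference of -0.05 (interval -0.24 to 0.14, limma adjusted p = 0.79). The regulatory subunit Pik3r4, the activator Ambra1 and Uvrag, which replaces ATG14 in the endosomal form of the complex, differed by 0.02, 0.03 and -0.02.

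The membrane supply genes had 0 of 5 past the test, 1 at an unadjusted limma p under 0.05 and a median difference of 0.089. Wipi2, whose protein binds PI3P and recruits ATG16L1, had the largest difference of all 36 genes. It was at 8.44, 8.17, 8.24 and 8.41 in WT and at 8.67, 8.42, 8.53 and 8.45 in IIKO arrays. IIKO array 1 was highest, and 3 of 4 IIKO arrays lay above every WT array. IIKO array 4 was barely above WT array 1 (8.446 against 8.444), and IIKO array 2 was just under WT array 1. The means were 8.32 ± 0.13 and 8.52 ± 0.11 (SD, n = 4 arrays each), a difference of 0.20 ± 0.08 (SE) or 1.15-fold, with a limma adjusted p of 0.25 (unadjusted 0.0326). Atg2b, a lipid transfer protein that feeds the growing membrane, read 8.21, 8.37, 8.34 and 8.23 in WT and 8.37, 8.40, 8.37 and 8.53 in IIKO arrays. Its groups did not overlap, but the lowest IIKO array stood only 0.0028 above the highest WT array. The difference was 0.13, with an interval of -0.01 to 0.27 (limma adjusted p = 0.309). The related Atg2a differed by 0.09 and Atg9a, the membrane protein carried by ATG9 vesicles, by -0.00079. Wipi1, the paralogue of Wipi2, had the opposite sign, at -0.10 (limma adjusted p = 0.477).

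In the conjugation machinery 0 of 11 genes passed, 1 lay at an unadjusted limma p under 0.05, and the median difference was 0.055. Atg16l1 encodes the protein that carries the ATG12-ATG5 pair to the membrane and so sets where LC3 is attached. It was at 7.93, 7.94, 7.95 and 7.88 in WT and at 8.00, 8.03, 8.10 and 8.15 in IIKO arrays. Every IIKO array lay above every WT array, with a gap of 0.05, and the difference was 0.14 ± 0.05 (SE), or 1.10-fold. Its interval was 0.02 to 0.26 (limma adjusted p = 0.229, unadjusted 0.0232). Together with Atg2b it made 2 genes whose groups did not overlap, both higher in IIKO chimeras and 0 lower. Over all genes, 2.83% did not overlap with higher and 7.69% with lower levels in IIKO chimeras. The paralogue Atg16l2 differed by 0.08 (limma adjusted p = 0.512).

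Atg5, the acceptor of ATG12, was at 8.23, 8.31, 8.42 and 8.07 in WT and at 8.18, 8.34, 8.26 and 8.32 in IIKO arrays. The IIKO arrays lay inside the WT range, and the difference of 0.02 had an interval of -0.16 to 0.19 (limma adjusted p = 0.93). Atg7, the E1-like enzyme that activates both ATG12 and the Atg8 proteins, read 8.49, 8.71, 8.49 and 8.65 in WT and 8.48, 8.42, 8.50 and 8.48 in IIKO arrays. WT arrays 2 and 4 were high, and the other WT arrays lay among the IIKO arrays. Its difference of -0.11 had the lowest value of all 36 genes and an interval of -0.25 to 0.03 (limma adjusted p = 0.379). Atg3 and Atg10, the E2-like enzymes for Atg8 proteins and for ATG12, differed by 0.07 and -0.01, and Atg12 itself by 0.05. Atg4b, the main protease that trims Atg8 proteins, read 7.31, 7.28, 6.99 and 7.23 in WT and 7.30, 7.39, 7.29 and 7.38 in IIKO arrays. WT array 3 was low and the rest of the groups lay close, with a difference of 0.13 (interval -0.03 to 0.30, limma adjusted p = 0.378). The other Atg4 proteases, Atg4a, Atg4c and Atg4d, differed by 0.02, 0.06 and -0.05. Atg4c, at 4.50 ± 0.08 in WT and 4.56 ± 0.12 in IIKO chimeras, was the 1 gene of the 36 below the lower quartile of gene levels (6.04), where background was not examined.

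**Figure D3:**
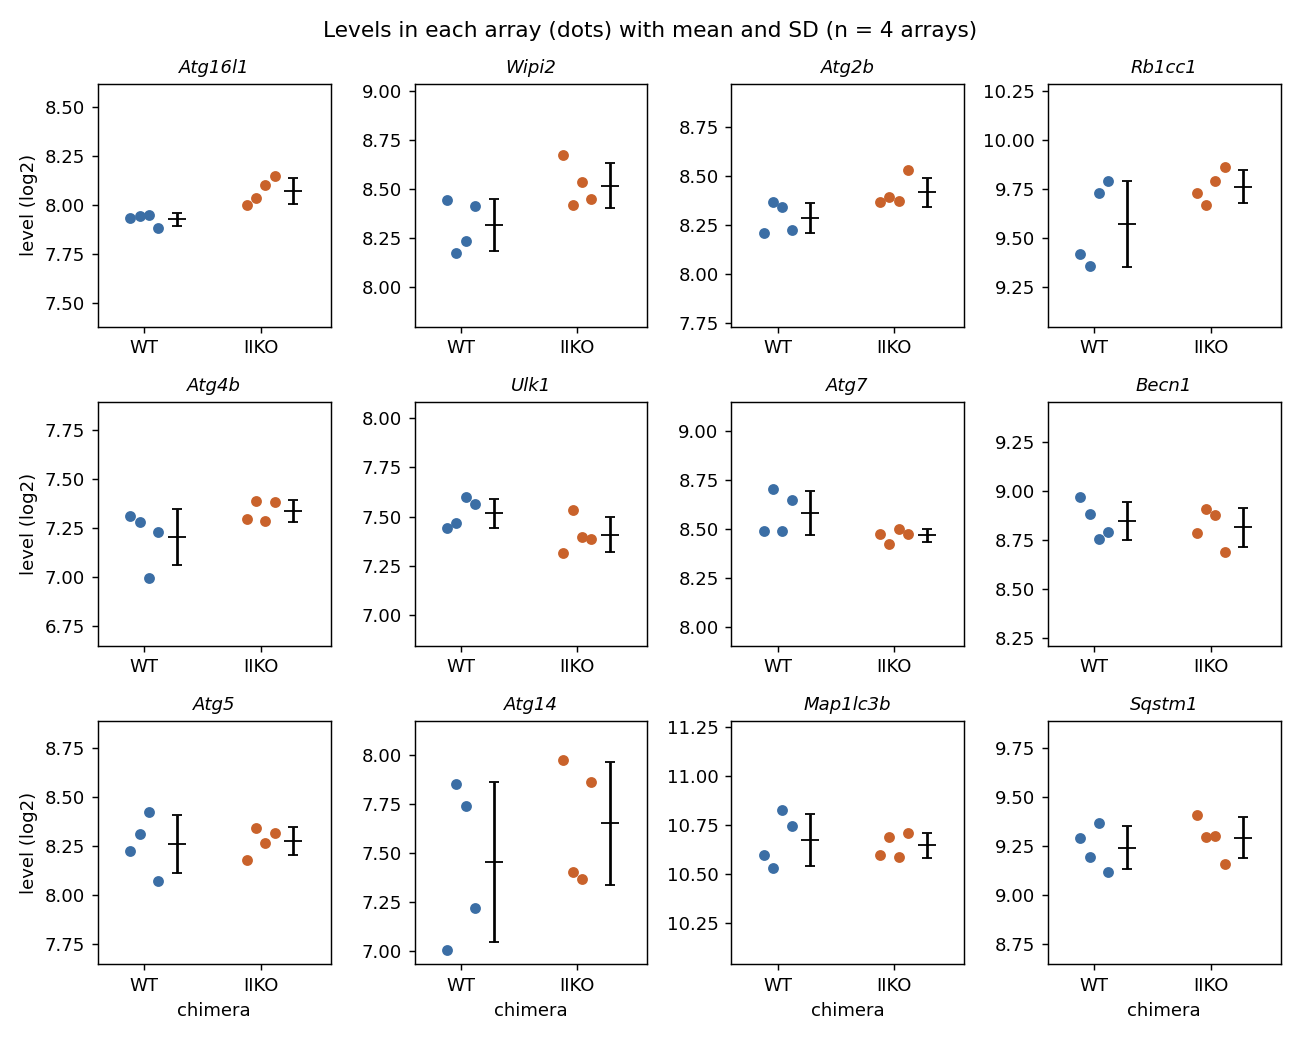
Levels (log2, vertical axes, each spanning the same range) of 12 autophagy genes in WT and IIKO chimera arrays (dots), with the mean and SD of 4 arrays beside them. Atg16l1 and Atg2b separate the groups by 0.05 and 0.0028, Wipi2 overlaps in 1 IIKO array, and Atg14 spreads from 7.01 to 7.97.

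The promoters of the autophagy genes were searched for motifs of factors known to act on this pathway, since TFEB binds E-box sequences of lysosomal and autophagy genes and FOXO factors activate several of them. Windows from 250 bases before to 50 after a RefSeq start (build GRCm38.p6) existed for 29 of the 36 genes. The E-box CACGTG, searched on both strands, was in the windows of 4 of these 29 genes (13.8%), against 9.50% of 15613 array genes with a window. By window the shares were 12.5% of 32 and 8.24% of 19176. All 4 genes act in nucleation or conjugation. The matches are shown because they are the sites at which a shared sequence could be compared with the levels above, with the motif in capitals and 10 bases on either side. Each runs 5′ to 3′ on the strand of its gene. Distances count from the first base of the motif, so the Atg14 match runs across the start.

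Atg3 (chr16:45158725-45158750, + strand), 94 bases before the start: ctccttttgtCACGTGtcctgggaga

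Atg3 (chr16:45158748-45158773, + strand), 71 bases before the start: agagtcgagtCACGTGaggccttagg

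Atg7 (chr6:114670954-114670979, + strand), 132 bases before the start: tattggtggtCACGTGtgcagtaagt

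Atg5 (chr10:44268315-44268340, + strand), 14 bases before the start: gagcgcttgcCACGTGgtcttggtga

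Atg14 (chr14:47568420-47568445, - strand), 1 base before the start: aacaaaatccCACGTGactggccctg

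The second Atg3 match also holds the longer TFEB-type motif TCACGTGA, which contains the E-box and was in 3.45% of the 29 genes (1 gene) and 1.52% of array genes. The FOXO motif GTAAACA, also searched on both strands, was in 0 of the 29 genes, against 3.54% of array genes. The 4 genes with an E-box had differences of 0.07 (Atg3), 0.02 (Atg5), -0.11 (Atg7) and 0.20 (Atg14), a median of 0.044. For the other 25 the median was 0.028. A match describes letters in this window only.

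The Atg8 proteins, which coat the autophagosome and bind receptors, had 0 of 5 genes past the test (0 unadjusted) and a median difference of 0.020. Map1lc3b, whose protein LC3B is the usual marker of autophagosomes, was at 10.60, 10.53, 10.83 and 10.74 in WT and at 10.60, 10.69, 10.59 and 10.71 in IIKO arrays. The IIKO arrays lay inside the WT range, with a difference of -0.03 and an interval of -0.19 to 0.13 (limma adjusted p = 0.86). Map1lc3a read 7.16, 7.16, 7.44 and 7.38 in WT and 7.41, 7.27, 7.70 and 7.20 in IIKO arrays. IIKO array 3 was the highest and the other IIKO arrays lay among the WT arrays (difference 0.11, limma adjusted p = 0.619). Gabarapl1 read 7.77, 7.53, 8.09 and 7.66 in WT and 8.04, 7.77, 7.97 and 7.74 in IIKO arrays. WT array 3 was its highest and WT array 2 its lowest, so that all IIKO arrays lay inside the WT range (difference 0.12, limma adjusted p = 0.622). Gabarap and Gabarapl2, both involved in later steps of autophagosome maturation, differed by 0.02 and -0.05. Protein amounts and lipid coupling of LC3, by which autophagy itself is judged, are not read by these arrays.

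The measured cargo receptors had 0 of 2 past the test (0 unadjusted). Sqstm1 encodes p62, which links ubiquitinated cargo to LC3. It was at 9.29, 9.19, 9.37 and 9.11 in WT and at 9.41, 9.29, 9.30 and 9.16 in IIKO arrays, with IIKO array 1 the highest and the groups otherwise mixed. The difference was 0.05, with an interval of -0.12 to 0.21 (limma adjusted p = 0.749). Nbr1, a receptor that works beside p62, read 8.77, 8.80, 8.89 and 8.85 in WT and 8.85, 8.97, 8.87 and 8.99 in IIKO arrays. IIKO arrays 2 and 4 were above the WT arrays and the others among them, with a difference of 0.09 (interval -0.03 to 0.22, limma adjusted p = 0.413).

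Of the fusion genes 0 of 2 passed (0 unadjusted). Stx17, the SNARE protein of the completed autophagosome, was at 7.47, 7.78, 7.87 and 7.70 in WT and at 7.73, 7.80, 7.82 and 7.85 in IIKO arrays. WT array 1 was low and WT array 3 the highest, and the difference was 0.09 (interval -0.09 to 0.28, limma adjusted p = 0.564). Without WT array 1 it was 0.017. Epg5, a tether that brings autophagosomes to lysosomes, read 8.14, 8.16, 8.16 and 8.05 in WT and 8.09, 8.00, 8.18 and 8.17 in IIKO arrays. The groups overlapped, with a difference of -0.02 (interval -0.15 to 0.12, limma adjusted p = 0.901).

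Across the pathway the spread between arrays of a group was of the size of the differences. WT SDs ran from 0.03 (Atg16l1) to 0.41 (Atg14) and IIKO SDs from 0.03 (Atg12) to 0.38 (Atg4a). WT array 3 held the highest level of 10 of the 36 genes and IIKO array 1 that of 8, while WT array 1 held the lowest level of 9 and WT arrays 2 and 4 that of 7 each. The median deviation of the 36 genes from their own means was lowest in WT arrays 4 and 1, at -0.051 and -0.047, and highest in WT array 3, at 0.058. In the IIKO arrays it was between 0.013 and 0.028, inside the WT range.

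**Figure D4:**
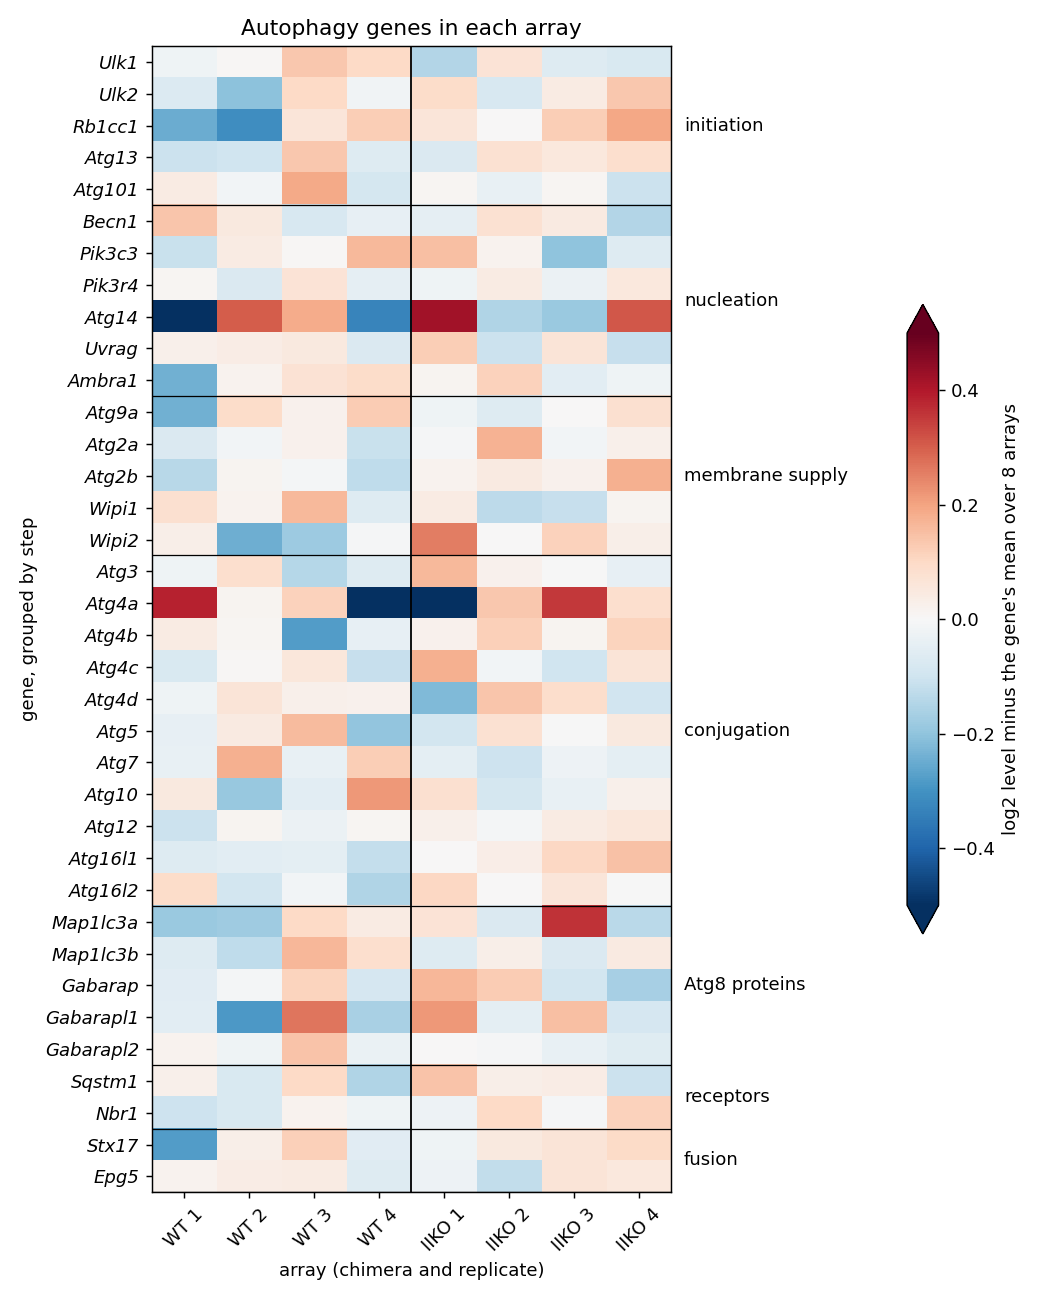
Level of each measured autophagy gene in each array, as the log2 difference from its mean over all 8 arrays (colour, red high and blue low, saturated at 0.5), with genes grouped by step and WT left of the line. Atg14 and Atg4a show the strongest colours in both groups, and WT array 3 is the highest array for 10 genes.

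Each of 4 genes was read by a pair of probe sets, and for 2 of them the brighter one, used above, has a number among those of another chromosome. Probe set numbers on this array follow the genome, so the 40 nearest numbers place a probe set. The brighter set of Atg4a, a gene on chromosome X, stood among numbers of chromosome 3 (39 of 40), and that of Gabarapl2, a gene on chromosome 8, among numbers of chromosome 5 (38 of 40). The brighter Atg4a set read 9.49, 9.12, 9.22 and 8.56 in WT and 8.57, 9.24, 9.46 and 9.19 in IIKO arrays, with WT array 4 and IIKO array 1 far below the rest. The set placed on chromosome X read 8.95, 8.64, 8.91 and 8.69 in WT and 8.76, 8.90, 9.04 and 8.82 in IIKO arrays. It lacked those low arrays, and its difference of 0.08 had an interval of -0.12 to 0.28 (limma adjusted p = 0.651), narrower than the -0.46 to 0.49 of the brighter set. For Gabarapl2 the set placed on chromosome 8 differed by 0.08 (interval -0.21 to 0.38, limma adjusted p = 0.763), opposite in sign to the -0.05 of the brighter set. Map1lc3b's dimmer set, placed on chromosome 14, differed by 0.29 (interval -0.05 to 0.64, limma adjusted p = 0.35), against -0.03 for the set on its own chromosome 8. The pair of Atg2b sets, both on chromosome 12, gave 0.13 each. Single probes were not examined, and whether the misplaced sets read related copies of these genes was not tested.

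**Figure D5:**
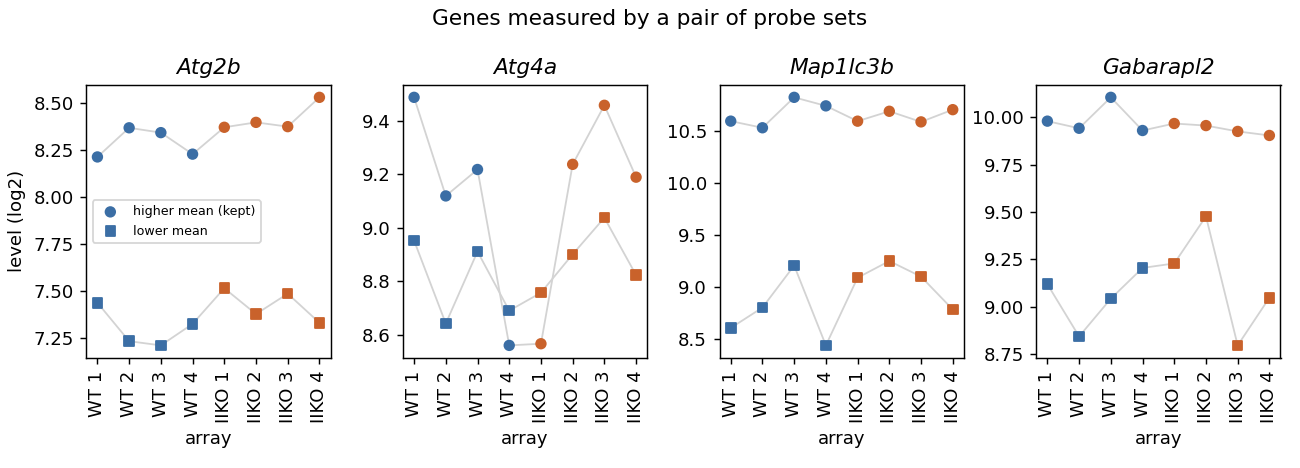
Levels (log2, vertical axes) of the 4 autophagy genes read by a pair of probe sets in each of the 8 arrays (WT blue, IIKO orange), with circles for the brighter set used in the comparison and squares for the dimmer one. The brighter Atg4a set falls to 8.56 in WT array 4 and 8.57 in IIKO array 1, where the dimmer set reads 8.69 and 8.76.

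The positions of the autophagy genes were set against those of the 57 genes that passed. Within the 20 nearest tested genes on either side, 5 of the 36 had such a gene (13.9%), and so had 8.24% of the 19855 tested genes with a position. On chromosome 7, Uvrag lay 4 genes from Lrrc32 (-0.74, limma adjusted p = 0.0373) and 20 genes from Alg8 (-0.92, limma adjusted p = 0.0177), while Uvrag itself had means of 10.06 ± 0.06 (WT) and 10.04 ± 0.12 (IIKO; SD, n = 4 arrays a group). Atg16l2, also on chromosome 7, lay 11 genes from Dnajb13 (-0.96). Atg16l1 on chromosome 1 lay 5 genes from Mroh2a (-0.57), Gabarap on chromosome 11 lay 4 from Dlg4 (0.43) and Epg5 on chromosome 18 lay 5 from Setbp1 (0.60). None of these 5 autophagy genes passed the test, and none of the 36 lies on chromosome 17.

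Other genes of the pathway were taken from 6 further lists, with 117 of 121 genes measured. Of these, 0 passed the test, and 17 of the 117 lay at an unadjusted limma p under 0.05 (9 higher and 8 lower in IIKO chimeras). Over all genes the share under that p was 17.3% (5.27% higher and 12% lower). The median difference over these lists was 0.0091.

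Further core and membrane genes had 0 of 18 past the test and 6 at an unadjusted p under 0.05 (4 higher, 2 lower). Eva1a, a membrane protein linked to autophagosome formation, had the smallest p of the lists. It was at 6.34, 6.31, 6.15 and 6.09 in WT and at 5.84, 5.89, 5.87 and 5.93 in IIKO arrays, every one below the WT arrays and below the lower quartile of gene levels. The difference was -0.34 ± 0.07 (SE; limma adjusted p = 0.0844). Wdr45b, which encodes WIPI3, another PI3P-binding relative of WIPI2, read 7.11, 6.86, 7.62 and 7.49 in WT and 7.89, 7.88, 7.77 and 7.76 in IIKO arrays. The IIKO arrays lay close together above a wide WT group (SD 0.07 against 0.35), with a difference of 0.56 and an interval of 0.24 to 0.87 (limma adjusted p = 0.157).

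Further receptors and mitophagy genes had 0 of 19 past the test and 3 at an unadjusted p under 0.05 (1 higher, 2 lower). Pink1, the kinase that marks damaged mitochondria for autophagy, was at 7.37, 7.29, 7.39 and 7.67 in WT and at 7.05, 7.24, 7.04 and 7.01 in IIKO arrays. All IIKO arrays were below the WT arrays, and the difference was -0.35 (interval -0.54 to -0.15, limma adjusted p = 0.157). Tax1bp1, a ubiquitin-binding receptor, read 11.02, 11.11, 11.12 and 10.95 in WT and 11.22, 11.34, 11.25 and 11.16 in IIKO arrays. Its IIKO arrays were all above the WT arrays, with a difference of 0.19 (interval 0.05 to 0.33, limma adjusted p = 0.196).

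Fusion and tethering genes had 0 of 17 past the test and 3 unadjusted (2 higher, 1 lower), with the smallest p for Vps16, a subunit of the HOPS tether (0.21, limma adjusted p = 0.219), and Ykt6, a SNARE protein (0.24, 0.236). The upstream nutrient and energy sensors, the mTORC1, AMPK and GATOR subunits among them, had 0 of 34 past the test and 1 unadjusted. This was Nprl2, a GATOR1 subunit that restrains mTORC1 (-0.15, limma adjusted p = 0.238), and Prkab1, an AMPK subunit, followed with 0.17 (0.337).

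Transcription factors of autophagy genes had 0 of 14 past the test and 2 unadjusted (1 higher, 1 lower). Nfe2l2, which encodes the oxidative stress factor NRF2 that p62 releases from KEAP1, read 9.0, 8.88, 9.01 and 8.69 in WT and 9.32, 9.40, 9.18 and 9.11 in IIKO arrays. Its groups did not overlap, and the difference was 0.36 (interval 0.16 to 0.56, limma adjusted p = 0.154). Foxo1, a FOXO factor, differed by -0.17 (limma adjusted p = 0.235). Inhibitors and apoptosis partners had 0 of 15 past the test and 2 unadjusted. These were Rubcnl, which encodes Pacer, an activator of the UVRAG form of the PI3-kinase complex despite its place in this list (-0.19, limma adjusted p = 0.248), and Mcl1, a BCL-2 relative that binds Beclin 1 (0.12, 0.287).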

How the data were processed

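Per the submitters' processing notes, the authors used affy and RMA, with no version or parameter stated there, and deposited 1 log2 value for each probe set and array. RMA subtracts background, brings all arrays to the same quantiles and combines a set's probes, so a change shared by most genes can be reduced or removed. Even so, only 37.1% of the differences over all genes were positive in the deposited values. Their median was -0.038, and -0.0069 after a further quantile normalization. Of 34760 probe sets, 21640 had 1 gene symbol in the platform annotation, 1321 had several and 11799 none; the latter kinds were left out. The brightest probe set per gene over all arrays was kept, without a filter on dim genes, which left 19937 genes.

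The test between groups was limma's (version 3.58.1, in R 4.3.3, lmFit and eBayes, two-sided, 6 residual degrees of freedom), Benjamini-Hochberg adjusted over all genes. The labels name biological replicates without naming animals, and p-values reflect only how these samples vary. The fit was run on simulated arrays with known changes. Their errors were drawn independently for each gene, so this cannot test shifts shared by many genes. The members and lists were chosen with earlier results of these data known. Array values are given for genes past the threshold or without overlap, the 2 smallest p per step, and Sqstm1, Map1lc3b, Becn1, Atg5 and Atg7; from each further list, genes past the threshold and the 2 smallest p are named. Also tried were the replicate number as a block, a threshold of 0.01, 2 further scalings, the brighter genes, another variance model, array weights, probe set means and each array left out. Probe sets placed on the gene's own chromosome were an alternative chosen after seeing the data. Figures used Python 3.11.15 and matplotlib 3.10.9.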

Additional observations from a re-analysis of the deposited data

Results flagged for a closer look

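Atg2b in IIKO array 4, at 8.53, stood apart from the other 3 IIKO arrays, which lay between 8.37 and 8.40. Its gap to the nearest array was 0.836 of the group's range, above Dixon's critical value at 95% for groups of 4. Over the 72 groups of 4 arrays examined (36 genes in each chimera), 1 was singled out in this way, and chance singles out about 1 in 20.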

How the results depend on the processing

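Under all 17 alternatives 0 of the measured autophagy genes and 0 of the genes of the 6 further lists passed the test. The threshold of 0.01 could not have added any, since 0 had passed at 0.05. The brighter genes held only 34 of the 36 autophagy genes and 100 of the 117 further genes, without Eva1a. The lowest limma adjusted p of an autophagy gene was 0.214 (Wipi2 without IIKO array 4). That of a further gene was 0.0646 (Eva1a, with a trend and robust variance). The number of autophagy genes at an unadjusted p under 0.05 was 4 with arrays centred on their medians, 1 with a trend and robust variance, and 0 to 3 when an array was left out (0 without IIKO array 3). Their median difference ran from 0.028 to 0.058 when an array was left out. The number of all genes past the test went from 57 to 21 at a threshold of 0.01, and from 32 to 50 when an array was left out. Same-numbered arrays of the groups had correlations of their deviations of 0.045, -0.015, -0.068 and 0.22 for numbers 1 to 4. Only for number 4 was the same-numbered IIKO array the best match of the WT array. Array medians, however, rose with the number in both groups. These values cannot decide whether the numbers pair the arrays, since the labels do not say whether same-numbered samples were handled together. With the replicate number as a block, 0 autophagy genes passed, 3 lay at an unadjusted p under 0.05, and 31 of all genes passed.

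Differences near 0 changed sign. After a further quantile normalization Pik3r4 was at -0.0076, Ambra1 at -0.0084, Atg9a at 0.011, Atg4a at -0.027 and Atg5 at -0.0092. With centred arrays Atg9a was at 0.018, Atg10 at 0.0068 and Epg5 at 0.0015. With probe set means Map1lc3b was at 0.13 and Gabarapl2 at 0.017, and Gabarapl2 was at 0.085 with the probe set of its own chromosome. When an array was left out, the ranges that crossed 0 were those of Ambra1 (-0.048 to 0.064), Atg10 (-0.077 to 0.058), Atg4a (-0.16 to 0.20), Atg4d (-0.098 to 0.021), Atg5 (-0.046 to 0.072), Atg9a (-0.081 to 0.042), Becn1 (-0.066 to 0.0091), Epg5 (-0.041 to 0.022), Gabarap (-0.033 to 0.078), Map1lc3b (-0.076 to 0.022), Pik3c3 (-0.11 to 0.011), Pik3r4 (-0.00078 to 0.047) and Uvrag (-0.063 to 0.017). The cause was not tested. Of the 114 differences of autophagy genes that another alternative re-estimated 103 kept their sign, as did 260 of 288 with an array left out. Leaving out some array moved the difference of 31 of the 36 genes by over 1.5 times or turned its sign. With 4 arrays a group, the standard errors of these differences were 0.052 to 0.22.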
